A study of Mus musculus with 18 samples.

Results

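The comparison described here asked how gene expression in mouse gastruloids changed over the day after a pulse of CHIR ended, and whether that change depended on when the pulse was given. CHIR is an inhibitor of the kinase GSK3 and is used to switch on Wnt signalling. Gastruloids are aggregates of embryonic stem cells that break symmetry and form tissues of the embryo's trunk in culture. The cells were of strain 129/SVEV and wild type in every group. Early gastruloids had CHIR from 24 to 48 h after aggregation and were collected at 48 h, when the pulse ended, and at 72 h. Control gastruloids had CHIR from 48 to 72 h and were collected at 72 h, when their pulse ended, and at 96 h. Each of these 4 groups has 3 poly(A) RNA libraries, so 12 of the 18 libraries of the series enter the comparison. The gastruloids of a condition were pooled before RNA extraction, and the labels do not state whether replicate libraries derive from independent cultures. Each p-value therefore measures only the spread between libraries, which may be technical.

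The change from 48 to 72 h in early gastruloids is called the early step, and the change from 72 to 96 h in control gastruloids the control step. The difference between the steps is the early step minus the control step, all as log2 fold changes. A gene was called when its adjusted p was below 0.05 (edgeR's quasi-likelihood test, Benjamini-Hochberg adjustment over 16041 genes, which were those of 55385 that passed the filter on low counts). The arms differ both in the timing of the pulse and in the age over which each step ran, and these cannot be told apart in this design. In bulk RNA, fewer cells of a type and less RNA per cell cannot be told apart either.

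When Wnt ligands bind their receptors, or when GSK3 is inhibited, β-catenin is no longer degraded and joins TCF/LEF factors at target genes. Many direct targets encode feedback regulators, such as the scaffold Axin2 that rebuilds the degradation complex, and their RNA levels are widely used as a readout of the pathway. In the embryo, Wnt signalling at the posterior end induces the primitive streak, in which epithelial epiblast cells leave the epithelium as mesoderm, and it later maintains the tailbud, where Cdx and T factors keep axial progenitors from which presomitic mesoderm forms. Epiblast cells themselves pass from a naive state through a formative to a primed state before they make these fates.

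The promoters of 4 Wnt feedback genes are shown because they carry, or lack, the letters that TCF/LEF factors recognise. The sequences are from RefSeq on GRCm38.p6, cover the 250 bases before the transcription start on the gene's strand, 5′ to 3′, and carry the TCF/LEF core CTTTGAA or CTTTGAT, or its reverse complement TTCAAAG or ATCAAAG, in capitals. They lie at chr2:70474673-70474922 on the plus strand for Sp5, chr14:61037988-61038237 on the minus strand for Tnfrsf19, chr12:118846983-118847232 on the plus strand for Sp8 and chr11:108920099-108920348 on the plus strand for Axin2. The first pair belongs to genes whose RNA fell after the early pulse and rose after the control pulse, Sp8 rose in both steps, and Axin2 behaved like the first pair.
Sp5: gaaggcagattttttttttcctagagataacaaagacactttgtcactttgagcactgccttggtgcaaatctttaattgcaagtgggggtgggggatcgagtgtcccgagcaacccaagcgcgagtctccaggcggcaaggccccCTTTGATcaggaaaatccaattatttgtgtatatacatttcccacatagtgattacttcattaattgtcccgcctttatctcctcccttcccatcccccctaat
Tnfrsf19: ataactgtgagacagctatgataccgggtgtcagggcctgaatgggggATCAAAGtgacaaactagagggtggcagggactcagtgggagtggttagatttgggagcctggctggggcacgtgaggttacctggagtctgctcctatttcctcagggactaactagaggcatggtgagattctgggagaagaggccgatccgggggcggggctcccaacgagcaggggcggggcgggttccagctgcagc
Sp8: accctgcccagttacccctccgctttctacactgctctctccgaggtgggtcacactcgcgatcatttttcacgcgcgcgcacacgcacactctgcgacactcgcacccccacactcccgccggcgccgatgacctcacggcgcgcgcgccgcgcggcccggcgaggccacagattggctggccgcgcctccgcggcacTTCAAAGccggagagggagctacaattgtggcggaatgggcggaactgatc
Axin2: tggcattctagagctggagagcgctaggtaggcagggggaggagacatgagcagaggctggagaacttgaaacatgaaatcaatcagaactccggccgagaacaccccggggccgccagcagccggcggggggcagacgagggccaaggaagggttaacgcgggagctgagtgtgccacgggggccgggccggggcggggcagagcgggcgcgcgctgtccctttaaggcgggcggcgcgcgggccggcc
The core starts 104 bases before the start site in Sp5, 202 bases before it in Tnfrsf19 and 51 bases before it in Sp8. The table lists 3 promoters for Sp8, of which 2 hold no core, and a second one for Tnfrsf19, which holds none; the one with the core is printed for each. The Axin2 window holds none of these letters, which says nothing about sites elsewhere. Of the 16 Wnt feedback and target genes followed here, 10 had a promoter in the table and 4 of these (40%) held a core in at least 1 of their promoters, the other one being Dkk1, against 755 of 11572 tested genes (6.52%) counted the same way. Counting by gene favours those with several promoters: these 10 had 18, while the whole table holds 32851 for 27025 genes. Among genes with opposite steps the share was 39 of 698 (5.59%) for those that rose in the early step and 33 of 514 (6.42%) for those that fell in it. A match describes the sequence and does not show binding.

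Axin2, whose product scaffolds the β-catenin degradation complex, fell after the early pulse and rose after the control pulse. The gene (ENSMUSG00000000142.15) lies at chr11:108920348-108950783 on mm10. Its level, in CPM, the counts scaled to a common library size, was 119, 117 and 125 in the early libraries at 48 h and 79.4, 82.1 and 81.6 at 72 h. In control libraries it was 215, 234 and 196 at 72 h and 259.7, 267 and 270.1 at 96 h. The groups of each step did not overlap, which held for 60.0% of all tested genes in the early step and 56.0% in the control step, and every control library was above every early one. The early step was -0.57 ± 0.06 (log2, SE; adjusted p = 1.08e-06, edgeR), the control step 0.31 ± 0.06 (adjusted p = 2.19e-04) and the difference -0.87 ± 0.08 (adjusted p = 1.78e-07).

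Sp5, a transcription factor that is itself a direct β-catenin target, moved the same way by more. It stood at 8.07, 6.75 and 12.9 CPM at the end of the early pulse and at 4.76, 4.24 and 4.35 CPM a day later, while control libraries went from 50.9, 56.3 and 49 CPM to 106, 95.7 and 94 CPM. Both steps separated their groups completely. The early change came to -1.05 ± 0.19 (adjusted p = 3.32e-04, edgeR), the control step 0.92 ± 0.13 (adjusted p = 1.56e-05) and the difference -1.98 ± 0.23 (adjusted p = 3.50e-06). Notum, a secreted enzyme that inactivates Wnt ligands, went from 18.9, 17.6 and 19.3 CPM to 7.79, 7.29 and 7.33 CPM after the early pulse. After the control pulse it went from 27.8, 30.4 and 33.5 CPM to 46.1, 45.1 and 109 CPM, the third library standing above the other two. Its difference was -2.44 ± 0.36 (adjusted p = 2.25e-05, edgeR). The receptor Tnfrsf19 fell by 0.61 in the early step and rose by 0.97 in the control step, with a difference of -1.58 ± 0.11 (adjusted p = 3.74e-09, edgeR).

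Across the 16 Wnt feedback and target genes, 4 rose and 7 fell in the early step, where 20.7% of all tested genes rose and 21.9% fell. In the control step 12 rose and 2 fell, against 27.5% and 27.4% of all genes. The difference was above 0 for 1 and below 0 for 8 of the 16, against 22.8% and 21.7% of all genes. The list's median was -0.07 in the early step and 0.62 in the control step, against -0.00 and -0.01 over all genes. On FPKM values the early median was 0.08 with a pseudocount of 1 and 0.15 with a pseudocount of 0.1, so the sign of that median depends on the scaling. The summed level of the list was 869 to 915 CPM at the end of the early pulse and 841 to 849 CPM a day later, and 1245 to 1402 CPM and then 2073 to 2133 CPM in control libraries.

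The list did not move as one. A fall in the early step with a rise in the control step was called for 6 members: Axin2, Sp5, Notum, Tnfrsf19, Cdx1 and Lef1. Lef1, a nuclear partner of β-catenin, is the least secure of these: its early fall of 0.36 (adjusted p = 1.00e-02, edgeR) was -0.14 (adjusted p = 0.48, limma) on FPKM values with a pseudocount of 1. Tcf7, another such partner, did the reverse, with an early step of 0.13 ± 0.05 (adjusted p = 3.57e-02) and a control step of -0.50, but its early rise was no longer called when any 1 of 5 early libraries was left out. Sp8 rose by 0.45 and 0.53, and Znrf3, a ligase that removes Wnt receptors, fell by 0.45 and 0.55, with differences that were not called (adjusted p = 0.729 for Sp8). Nkd1, an intracellular antagonist, rose in the control step only, with 40.6, 41.1 and 39.1 CPM and then 87.2, 85.3 and 82.1 CPM, while early libraries held 6.69 to 9.81 CPM and then 9.47 to 9.65 CPM. Its difference was -0.93 ± 0.15 (adjusted p = 5.83e-05, edgeR). Sp8, Znrf3 and Nkd1 are named after their values were seen.

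Among the 8 Wnt ligands, the difference was called below 0 for 4 and above 0 for 2. Wnt3, which acts at the start of the primitive streak, stood at 62.8, 53.3 and 33.5 CPM at the end of the control pulse and at 6.26, 5.21 and 2.31 CPM a day later, a control step of -3.39 ± 0.24 (adjusted p = 1.24e-09, edgeR). Early libraries held 12, 11.3 and 14.8 CPM and then 16.8, 18 and 16.4 CPM, which do not overlap, though the early step of 0.43 was not called (adjusted p = 0.124, edgeR). It was called without both control libraries numbered 3 (0.45, adjusted p = 0.00079, edgeR), and the class of Wnt3, a change in the control step only, was kept in 20 of 24 alternatives. Wnt3a, the tailbud ligand, did the reverse in control gastruloids, from 7.52, 10.9 and 7.6 CPM to 134, 136 and 138 CPM, and averaged 0.157 and then 0.19 CPM in early ones. Its difference of -3.73 ± 0.92 (adjusted p = 3.11e-03, edgeR) was no longer called without the early 48 h library numbered 1, and it is named after its values were seen. Wnt5b, a ligand linked to cell movement in the streak, fell in the early step from 23.2, 21.5 and 22.3 CPM to 15.2, 16 and 15.3 CPM. In the control step it rose from 39.6, 41.1 and 42.4 CPM to 122, 118 and 161 CPM, with a difference of -2.23 ± 0.14 (adjusted p = 8.11e-10, edgeR). Wnt5a, its close relative, rose 25.4-fold in the control step and had an early step of -0.17 ± 0.34 (adjusted p = 0.716).

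Over all genes, 6837 of 16041 (42.6%) were called in the early step, 3327 up and 3510 down. The control step held 8802 (54.9%), 4410 up and 4392 down. The difference was called for 7146 genes (44.5%), 3659 above 0 and 3487 below 0. The control step was also the larger: 2676 called genes changed at least 2-fold in it, against 1380 in the early step, and the SD of the log2 changes was 1.07 against 0.61. Total counts per library were 14841728 to 24536538. The control libraries numbered 3 stood apart from the others of their group: a chi-square comparison of counts with another library, divided by its degrees of freedom, gave 16.2 to 19.1 at 72 h and 24.6 to 28.1 at 96 h, against 1.41 to 4.80 for all other pairs within the 4 groups. Results that these libraries decide are given with and without them below.

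Genes were sorted by which steps were called and in which direction. Opposite steps were found for 1554 genes (9.69%): 913 (5.69%) rose in the early step and fell in the control step, and 641 (4%) did the reverse. A step called only in the early arm, with the difference also called, was found for 1571 genes (9.79%), 763 up (4.76%) and 808 down (5.04%). The same in the control arm held for 2989 genes (18.6%), 1561 up (9.73%) and 1428 down (8.90%). Both steps went the same way for 2645 genes (16.5%), 1227 up (7.65%) and 1418 down (8.84%). For 1857 of these (11.6%), 856 up (5.34%) and 1001 down (6.24%), the difference was not called. For 590 (3.68%) the step was larger in control and for 198 (1.23%) it was larger in early gastruloids. Another 2681 genes (16.7%) had 1 step called without the difference, so that shared and arm-specific change could not be separated. Of the 4199 genes called in both steps, 63.0% moved in the same direction. Across genes, which are not independent replicates, the Pearson correlation of the steps was 0.101 (n = 16041) and 0.163 for the 11538 genes with a mean of at least 5 CPM in any of the 4 groups.

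**Figure D1:**
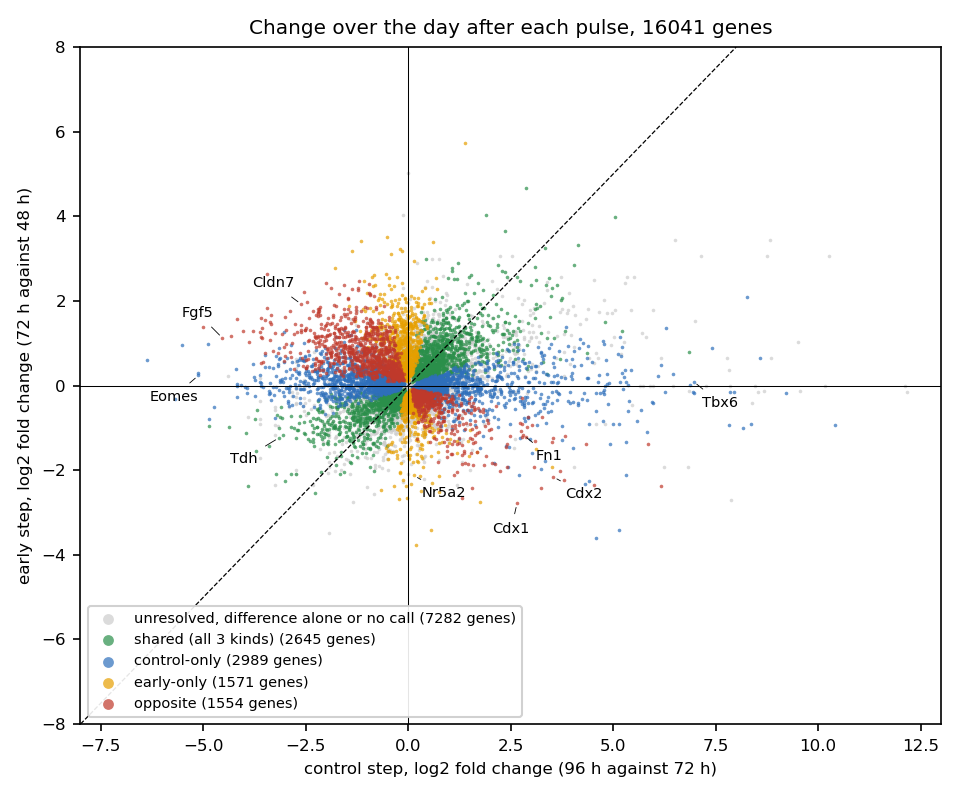
Each point is 1 of the 16041 tested genes, with the log2 fold change of the control step (96 h against 72 h) on the x axis and that of the early step (72 h against 48 h) on the y axis, coloured by class, and with a dashed line where both are equal. The cloud is wider than it is tall, with an SD of 1.07 for the control step and 0.61 for the early step, and the 913 and 641 genes with opposite steps (red) lie at the upper left and the lower right.

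The split of the early step into rises and falls depended on the measure. Of the called genes, 48.7% rose on counts with TMM scaling and 48.4% with DESeq2's size factors, but 70.1% and 72.0% on FPKM values with pseudocounts of 1 and 0.1. After centring each library's FPKM values on its median, an alternative chosen after seeing the data, 42.9% rose. FPKM values moved the median early step of all genes by 0.10, and the median difference by 0.09. The genes that fell early and rose in the control step numbered 641 on counts and 204 to 337 on FPKM values, so their number is less secure than that of the 913. For the difference, the share above 0 was 51.2% on counts, 59.4% and 63.1% on FPKM values and 57.7% after centring, and for the control step the share that rose was 50.1%, 51.1%, 49.6% and 35.7%.

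Genes of the formative and primed epiblast rose in the early step and fell in the control step. Of 13 such genes, 8 rose and 1 fell in the early step, against 20.7% and 21.9% of all genes, and 1 rose and 8 fell in the control step, against 27.5% and 27.4%. The difference was above 0 for 10 and below 0 for none, against 22.8% and 21.7%. The list's median difference was 1.46, against -0.01 over all genes. With both steps called, 6 rose early and fell in the control step, which held for 5.69% of all genes. The same shares over all genes apply to the counts of the lists that follow.

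Fgf5 (ENSMUSG00000029337.2, chr5:98254183-98277030), a growth factor that marks the epiblast after implantation, had the largest difference among the genes that rose early and fell in the control arm and passed the level filter of the naming rule. It stood at 36.7, 40.8 and 43.5 CPM at the end of the early pulse and at 89.3, 89.7 and 83.8 CPM a day later. Control libraries held 92.7, 94.8 and 35.9 CPM at the end of their pulse and 4.27, 3.91 and 0.998 CPM a day later. The third control library was the lowest at both ages. Its early step was 1.12 ± 0.24 (adjusted p = 1.24e-03, edgeR), the control step -4.53 ± 0.33 (adjusted p = 2.67e-09) and the difference 5.66 ± 0.42 (adjusted p = 6.43e-09), a ratio of 50.5 between the 2 fold changes.

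Otx2, a homeobox factor of epiblast and later forebrain, went from 94.3, 104 and 102 CPM to 142, 148 and 149.8 CPM after the early pulse, and from 30, 26.3 and 13 CPM to 2.4, 2.06 and 1.31 CPM after the control pulse. Its difference was 4.11 ± 0.30 (adjusted p = 5.13e-09, edgeR). Pou3f1, a POU factor of the same stage, went from 35.3, 31.7 and 41.6 CPM to 91.2, 94.9 and 91.6 CPM in the early arm and from 18.6, 15.9 and 15 CPM to 4.1, 4.4 and 6.24 CPM in the control arm, a difference of 3.14 ± 0.16 (adjusted p = 6.76e-11). In both genes every early library at 72 h was above every other library of the 4 groups. Dnmt3b, a de novo DNA methyltransferase, rose from 1626, 1703 and 1628 CPM to 2213, 2199 and 2169 CPM and fell from 1055, 997 and 803 CPM to 285, 285 and 284 CPM. Zic2, a zinc-finger factor of the primed epiblast, had an early step of 1.02 ± 0.08, a control step of -1.30 ± 0.09 and a difference of 2.32 ± 0.12 (adjusted p = 9.94e-11, edgeR). Foxd3, a forkhead factor, rose by 0.77 ± 0.13 in the early step (adjusted p = 1.63e-04) and had only 3 counts over the control libraries at 96 h, a 12.5-fold fall with a 95% counting interval of 3.95 to 63.9.

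Epithelial adhesion genes moved in the same way. Of 13, 11 rose and none fell in the early step, 1 rose and 8 fell in the control step (all genes, 20.7% and 21.9%, then 27.5% and 27.4%). A rise in the early step with a fall in the control step was called for 7, against 5.69% of all genes. The list's median was 1.05 in the early step, -0.50 in the control step and 1.44 for the difference. Cldn7, a tight-junction protein, went from 11.2, 12.5 and 11.5 CPM to 44.5, 43.1 and 45.3 CPM after the early pulse. After the control pulse it went from 44, 37.1 and 34.1 CPM to 7.88, 6.46 and 4.05 CPM, so the early arm ended near where the control arm began. This gave an early step of 1.92 ± 0.13 (adjusted p = 7.88e-09, edgeR), a control step of -2.61 ± 0.14 (adjusted p = 5.58e-11) and a difference of 4.53 ± 0.20 (adjusted p = 7.06e-12). Cldn6, another claudin, rose from 46, 55.5 and 51.3 CPM to 127, 124 and 125 CPM and fell from 106, 99 and 88.9 CPM to 20.8, 18 and 16.2 CPM. Cldn3, Ocln and Cdh3, 2 further tight-junction proteins and P-cadherin, rose by 2.10, 1.05 and 0.60 in the early step, with control steps of -0.83, -0.50 and -0.46. Esrp1, a splicing regulator of epithelial cells, rose by 0.29 and then fell by 1.15.

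E-cadherin, encoded by Cdh1, is a partial exception. Its early libraries held 637, 665 and 655 CPM and then 793, 782 and 794 CPM, without overlap, and its control libraries 713, 750.1 and 677 CPM and then 403, 380.2 and 194 CPM. The early step of 0.28 ± 0.16 was not called (adjusted p = 0.175, edgeR), while the control step of -1.13 ± 0.16 and the difference of 1.40 ± 0.23 (adjusted p = 6.47e-05) were. Without both control libraries numbered 3 the early step was 0.29 and called (adjusted p = 2.1e-05). The keratins Krt8 and Krt18 rose by 1.74 and 2.06 in the early step, and Krt8 rose by 1.07 in the control step too. These keratins were named after their values were seen.

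**Figure D2:**
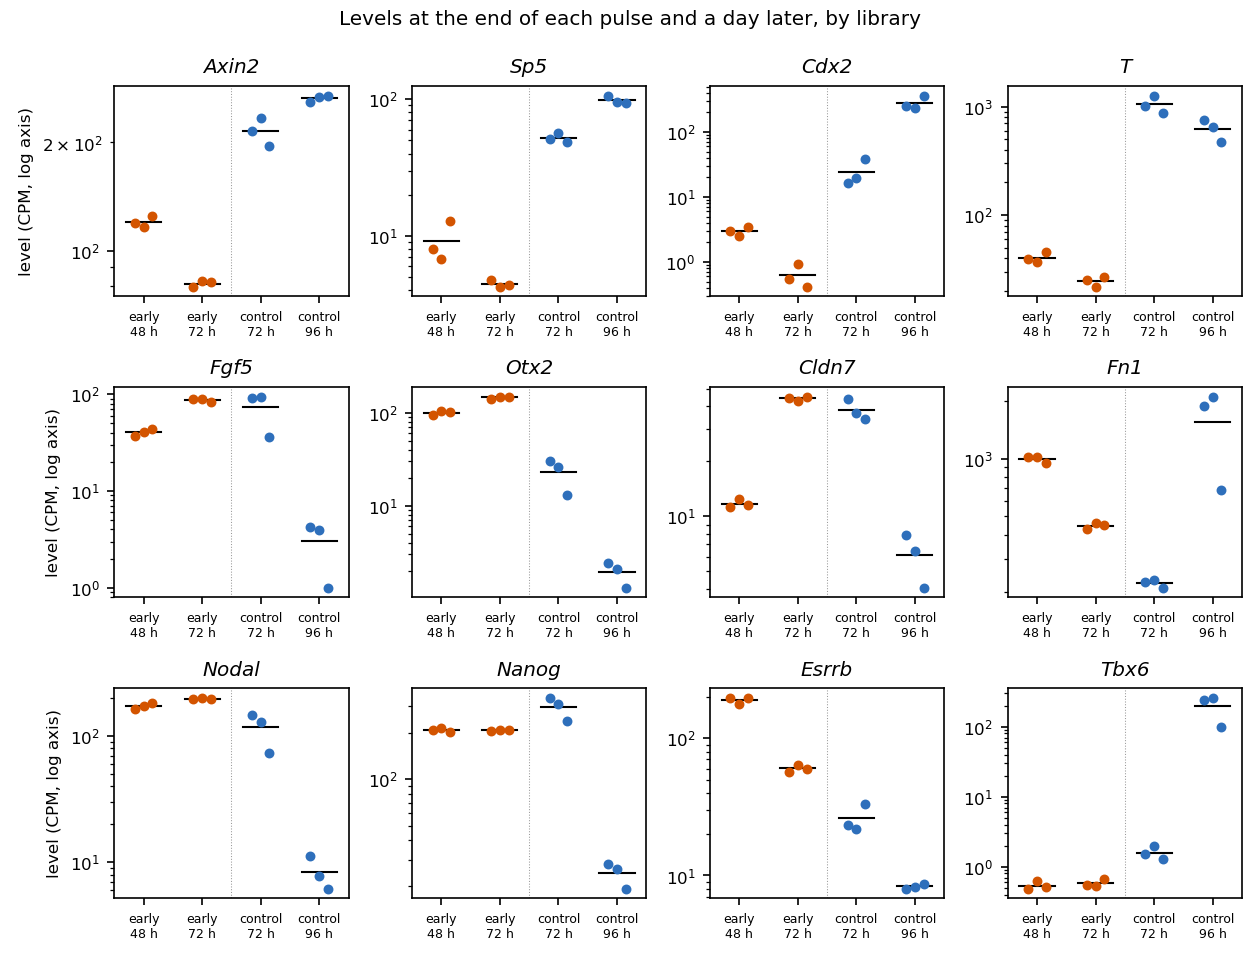
Levels of 12 genes in CPM on a log axis, with 1 point for each library, a bar at each group's mean, and the 4 groups in the order early 48 h, early 72 h, control 72 h and control 96 h. Cldn7, Fgf5 and Otx2 go up and then down across the 2 steps, Axin2, Sp5, Cdx2 and Fn1 go down and then up, and T and Esrrb go down in both.

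Genes of the mesenchymal transition did the reverse of the epithelial ones in part. Of 12 tested, 6 rose and 4 fell in the early step, and 11 rose and none fell in the control step. The 4 with opposite steps were Vim, Fn1, Snai1 and Zeb1. Fn1, which encodes fibronectin, went from 1025, 1022 and 951 CPM to 428, 458 and 449 CPM after the early pulse and from 226, 231 and 211 CPM to 1880.1, 2115 and 687 CPM after the control pulse. The third control library at 96 h was far below the other two but still above all libraries at 72 h. The early step was -1.17 ± 0.24 (adjusted p = 7.68e-04, edgeR), the control step 2.81 ± 0.25 (adjusted p = 3.60e-08) and the difference -3.98 ± 0.35 (adjusted p = 4.90e-08). Zeb1, a repressor of epithelial genes, went from 6.43, 4.36 and 4.86 CPM to 2.58, 2.53 and 2.92 CPM and from 3.14, 4.01 and 4.35 CPM to 27, 30.7 and 28.4 CPM. Snai1, the factor that represses Cdh1 in the streak, fell by 1.07 ± 0.26 and rose by 1.20 ± 0.21, with a difference of -2.27 ± 0.34 (adjusted p = 2.81e-05). Vim, which encodes vimentin, fell by 0.66 and rose by 1.38, though its early fall was not called on FPKM values with a pseudocount of 1 (-0.50, adjusted p = 0.05, limma). Cdh2, or N-cadherin, stayed between 14.9 and 17.2 CPM in all 6 early libraries and rose from 26.1, 34.3 and 41.7 CPM to 268, 279 and 228 CPM in control ones, a difference of -2.84 ± 0.17 (adjusted p = 4.56e-10). Twist1, Col4a1 and Zeb2, named after their values were seen, rose in both steps, Twist1 by 0.89 and 0.87.

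Cdx2, a posterior patterning factor, was low throughout the early arm. It stood at 3, 2.52 and 3.43 CPM at the end of the early pulse and at 0.546, 0.937 and 0.417 CPM a day later, an early step of -2.16 ± 0.55 (adjusted p = 4.20e-03, edgeR). Control libraries went from 16.5, 19.8 and 37.8 CPM to 248, 237 and 364 CPM, a control step of 3.54 ± 0.22 (adjusted p = 2.47e-10), and the difference was -5.70 ± 0.57 (adjusted p = 3.09e-07). Cdx1, its relative, went from 6.62, 5.71 and 5.49 CPM to 0.843, 0.937 and 0.775 CPM in the early arm and from 31.3, 49.1 and 132 CPM to 496, 501 and 322 CPM in the control arm. Its difference of -5.44 ± 0.84 (adjusted p = 6.90e-05) became -6.41 without both control libraries numbered 3 and -6.23 without the one of 72 h. Of the 13 neuromesodermal and tailbud genes, 3 rose and 4 fell in the early step, 12 rose and 1 fell in the control step, and the difference was below 0 for 9 and above 0 for none. The list's median difference was -1.69.

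T, the brachyury gene of streak and tailbud, belongs to neither group. Its early libraries held 39.2, 37.2 and 45.4 CPM and then 25.5, 21.9 and 26.9 CPM, and its control libraries 1008, 1263 and 872 CPM and then 747, 653 and 473 CPM. Every control library was far above every early one, yet the early step was -0.72 ± 0.18 (adjusted p = 3.16e-03, edgeR) and the control step -0.75 ± 0.15 (adjusted p = 3.03e-04). The difference was 0.03 ± 0.23 (adjusted p = 0.943).

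Most genes of the Nodal pathway, 7 of 10, fell in the control step. Nodal is a ligand of the TGF-beta family that sustains the epiblast and patterns the streak. Of its 10 pathway genes, 3 rose and 1 fell in the early step, 1 rose and 7 fell in the control step, and the difference was above 0 for 6 and below 0 for 1, with a median of 1.24. Nodal itself held 164, 174 and 183 CPM and then 198, 202 and 196 CPM in early libraries, an early step of 0.19 ± 0.18 that was not called (adjusted p = 0.407, edgeR). It was called without both control libraries numbered 3 (0.21, adjusted p = 0.049, edgeR), and Nodal kept its class, a change in the control step only, in 22 of 24 alternatives. Control libraries went from 148, 129 and 73.8 CPM to 11.1, 7.82 and 6.17 CPM, a control step of -3.77 ± 0.23 (adjusted p = 2.50e-10), and the difference was 3.96 ± 0.29 (adjusted p = 6.43e-09). Tdgf1, the Nodal co-receptor, held 429.8 to 441 CPM and then 439 to 463 CPM in the early arm and went from 180.3, 189.9 and 104 CPM to 16.5, 13.5 and 8.17 CPM in the control arm. Pmepa1, a feedback inhibitor of TGF-beta signalling, fell by 3.73 ± 0.28 in the control step.

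Eomes, a T-box factor of mesendoderm, held 33.8, 35.2 and 37.9 CPM and then 43, 44.4 and 38.5 CPM in early libraries. Control libraries went from 125, 123 and 26.3 CPM to 3.86, 2.88 and 0.624 CPM, and the difference was 5.36 ± 0.62 (adjusted p = 1.57e-06, edgeR). Without both control libraries numbered 3 its early step was 0.25 and called (adjusted p = 0.016).

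Nanog, a core pluripotency factor, had no called early step, with 210.4, 218 and 204 CPM and then 207, 211 and 210.4 CPM. In the control arm it went from 342, 313 and 242 CPM to 28.2, 26.1 and 19.3 CPM. The early change came to -0.01 ± 0.11 (adjusted p = 0.951, edgeR), the control step -3.59 ± 0.13 (adjusted p = 2.12e-13) and the difference 3.58 ± 0.17 (adjusted p = 1.97e-11). Pou5f1, which encodes Oct4, held 1300.2 to 1309 CPM and then 1324 to 1337 CPM in early libraries, a step of 0.03 (adjusted p = 0.929), and in control libraries went from 1369, 1360.0 and 1297 CPM to 474, 425 and 154 CPM. Its difference was 1.96 ± 0.32 (adjusted p = 7.66e-05). Platr10, a long noncoding RNA of stem cells, was at 171 to 184 CPM in all 6 early libraries and went from 64, 58.7 and 69.4 CPM to 4.76, 3.69 and 3.3 CPM in control ones, a control step of -4.00 ± 0.10 (adjusted p = 1.94e-15). Among 11 general pluripotency factors, none rose and 5 fell in the early step, and 3 rose and 6 fell in the control step.

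Sox2, a core pluripotency factor that also marks neural and axial progenitors, went the other way from Nanog and Pou5f1 in the control step. Its early libraries held 218, 196 and 252 CPM and then 144, 148 and 153 CPM, and its control libraries 28.5, 29.9 and 61.1 CPM and then 74.7, 63.9 and 131 CPM, the third being the highest at both ages. The control step was 1.18 ± 0.25 (adjusted p = 5.11e-04, edgeR) and the difference -1.76 ± 0.33 (adjusted p = 3.25e-04). The early fall of 0.58 ± 0.22 (adjusted p = 4.52e-02) was not called when any 1 early library was left out (adjusted p = 0.051 to 0.15), nor by DESeq2 (adjusted p = 0.12) or on FPKM values. Without both control libraries numbered 3 the steps were -0.57 and 1.26, and both were called.

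Most naive pluripotency factors fell in the early step, and 7 of 14 fell in both steps. Of the 14, 12 fell and 1 rose in the early step, and 7 fell and 3 rose in the control step, with medians of -1.19 and -0.70. Klf5 and Prdm14, a zinc-finger factor each, fell early (-0.90 for both) and rose in the control step by 1.33 and 2.78, and Fgf4, a growth factor, rose in both steps. Fgf4 kept its class, with the larger rise in control, in 18 of 24 alternatives. On FPKM values 9 or 8 of the 14 fell in the early step, with pseudocounts of 1 and 0.1. Esrrb, an orphan nuclear receptor of the naive network, went from 197, 178 and 198 CPM to 57.2, 63.7 and 59.9 CPM in the early arm. In the control arm it went from 23.3, 21.7 and 33.2 CPM to 8.01, 8.31 and 8.73 CPM, so it fell to a similar degree from a lower level. The steps were -1.66 ± 0.10 and -1.64 ± 0.13, with a difference of -0.02 ± 0.17 (adjusted p = 0.926, edgeR). Zfp42 and Tfcp2l1, 2 other naive factors, fell in both arms and by more in the early one: Zfp42 by 1.48 against 0.92 (difference adjusted p = 1.15e-03) and Tfcp2l1 by 2.01 against 0.83 (difference adjusted p = 5.64e-07). Tdh, a threonine dehydrogenase on which mouse stem cells depend, fell by more in the control arm, from 122, 105 and 111 CPM to 13, 12.3 and 12.7 CPM, against 566, 533 and 549.8 CPM and then 241, 233 and 228 CPM in the early arm. Nefl, a neurofilament gene, was among the largest shared falls, by 1.87 and 1.77.

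Of the genes that rose in both arms, 264 (1.65%) rose by more in the control arm and 107 (0.667%) by more in the early arm, with the difference called. Of the shared falls, 326 (2.03%) were larger in the control arm and 91 (0.567%) in the early one. Slc2a1, the main glucose transporter of the embryo, went from 109, 105 and 113 CPM to 270.3, 265 and 266 CPM in the early arm and from 190.3, 188 and 332 CPM to 1204, 1143 and 1813 CPM in the control arm. The steps were 1.30 ± 0.18 and 2.55 ± 0.18, and the difference -1.26 ± 0.25 was called (adjusted p = 4.86e-04, edgeR). Greb1, a growth regulator first found as an oestrogen target, rose by 0.83 ± 0.16 and 2.43 ± 0.12. Dach1, a nuclear cofactor, rose from 0.435, 0.43 and 0.229 CPM to 2.03, 2.4 and 1.97 CPM and from 3.46, 3.65 and 4.22 CPM to 44.6, 50.9 and 26 CPM. Its difference of -0.90 ± 0.51 was not called (adjusted p = 0.168), but without the third control library of 96 h it was -1.12 and called (adjusted p = 0.014).

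Genes of presomitic mesoderm rose in the control step and stayed at low counts in the early arm. Of 9 tested, 8 rose and none fell in the control step, 2 rose in the early step, and the difference was below 0 for 7. Tbx6, the T-box factor that commits cells to paraxial mesoderm, held 0.483 to 0.656 CPM in all 6 early libraries and went from 1.49, 1.98 and 1.3 CPM to 243, 261 and 98.5 CPM in control ones. The control step was 6.96 ± 0.34 (adjusted p = 1.05e-11, edgeR) and the difference -6.86 ± 1.21 (adjusted p = 1.66e-04). Rspo3, a secreted Wnt potentiator, rose from 4.42, 6.2 and 3.25 CPM to 194, 209 and 147 CPM in control libraries and stood at 1.31 to 2.53 CPM in early ones. Msgn1 had 1 count in each early group, so no early fold is given. With a control step of 8.68 ± 0.60 its difference was -8.81 ± 9.18 and not called (adjusted p = 0.468, edgeR), but without both control libraries numbered 3 it was -8.90 and called (adjusted p = 0.027). It was called in 10 of 25 alternatives.

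The Notch ligand Dll1 had measurable counts in every group. It held 13.5, 13 and 13.1 CPM and then 12.6, 12 and 13.1 CPM in the early arm, and went from 6.02, 7.35 and 13.9 CPM to 400.0, 411 and 200.2 CPM in the control arm. Its early step was -0.08 (adjusted p = 0.848, edgeR), the control step 5.25 ± 0.26 (adjusted p = 1.33e-11) and the difference -5.32 ± 0.37 (adjusted p = 3.58e-09), which was -5.99 without both control libraries numbered 3. Notch1, its receptor, held 42.6 to 48.8 CPM in early libraries and went from 39.8, 38 and 37.6 CPM to 332, 376 and 172 CPM. Of 12 Notch and segmentation clock genes, 5 rose in the early step and 10 rose and 1 fell in the control step, with the difference below 0 for 8 and above 0 for 1. The exception was Hes1, a Notch effector, with 14, 13.3 and 15.3 CPM and then 22, 22.4 and 22.6 CPM in the early arm and a control step of -0.35 ± 0.11 in which the libraries overlapped.

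Retinoic acid genes had differences below 0 in every tested member, 10 of 10. Aldh1a2, the enzyme that makes retinoic acid in somites, held 1.96 to 2.47 CPM and then 0.937 to 1.34 CPM in early libraries and went from 1.07, 0.938 and 1.17 CPM to 413, 455 and 41.8 CPM in control ones. The third control library at 96 h was far below the other two. The difference was -9.17 ± 1.65 (adjusted p = 1.99e-04, edgeR), and without both control libraries numbered 3 it was -9.74 and the early fall of 0.99 was called (adjusted p = 0.00025). Crabp1, a retinoic acid binding protein, was at 6.8 to 8.52 CPM in early libraries and went from 4.64, 3.7 and 5.52 CPM to 92.1, 95.9 and 191 CPM. Its relative Crabp2 rose in both arms, by 1.13 ± 0.16 and 3.38 ± 0.13. On FPKM values the difference was below 0 for 8 of the 10.

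All 24 tested Hox genes rose in the control step, 12 of groups 1 to 4 and 12 of groups 5 to 9. Another 3 listed genes were not tested. None was called in the early step by edgeR or by DESeq2, with 0 at an unadjusted p below 0.05. Of 15 listed in groups 5 to 9, 14 averaged under 1 CPM in each early group, 13 in control at 72 h and 1 at 96 h. Such genes passed the count filter mainly through their high group, which partly fixes these counts. In groups 1 to 4 and 5 to 9, 3 and 5 of the tested 12 had 3 counts or fewer in both early groups. Hox genes give each level of the trunk its identity and switch on in order along their clusters. The difference was below 0 for 6 of the first 12 and 5 of the second. Without both control libraries numbered 3 it was below 0 for 10 of each, and 2 of the first 12 rose and 2 fell in the early step. Hoxb4 held 0 to 0.248 CPM in early libraries and went from 0, 0.208 and 1.04 CPM to 41.9, 47.8 and 55.9 CPM in control ones, a control step of 6.98 ± 0.40 (adjusted p = 9.87e-11, edgeR). Its difference was -7.15 ± 1.55 (adjusted p = 1.10e-03), -8.81 without both control libraries numbered 3, -8.92 without the one of 72 h alone and -6.52 without the first control library of 72 h. Hoxb1, the gene at the anterior end of its cluster, was already present at the end of both pulses, with 16.5, 16 and 15.7 CPM and then 5.85, 5.13 and 7.27 CPM in the early arm. Control libraries held 19, 29.9 and 164 CPM and then 399, 404 and 279 CPM. Its difference was -3.79 ± 0.82 (adjusted p = 1.07e-03), and without both control libraries numbered 3 it was -5.46 and the early fall of 1.41 was called (adjusted p = 1.6e-05). Without the control library of 72 h numbered 3 alone the difference was -5.30.

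Of 14 FGF and ERK feedback genes, 4 rose and 3 fell in the early step and 10 rose and 2 fell in the control step. Fgf3, a ligand of streak and tailbud, rose in both arms, from 0.87, 0.798 and 1.09 CPM to 1.64, 1.3 and 1.91 CPM in the early arm and from 0.32, 0.521 and 0.455 CPM to 54.2, 56 and 40.7 CPM in the control arm. Its difference was -6.06 ± 0.43 (adjusted p = 4.02e-09, edgeR). Fgf4, a ligand of stem cells and streak, rose by 0.26 and 3.39, and Etv4, an ERK target, fell by 0.58 in the early step and rose by 1.61 in the control step. The class of Fgf3 and Fgf4, a rise in both steps that was larger in control, was kept in 17 and 18 of 24 alternatives. Of 10 BMP ligands and response genes, 6 rose and none fell in the control step, against 3 and 1 in the early step. Id1, a direct BMP target, rose by 3.34 ± 0.25 in the control step, and Bmp7, a ligand, went from 17.1, 20.6 and 18.6 CPM to 29.4, 28.3 and 28.9 CPM there while early libraries stayed at 4.65 to 5.46 CPM. Smad6, an inhibitor of BMP signalling, changed only in the early step by this test, with a rise of 1.16 ± 0.17 (adjusted p = 4.06e-05) against a control step of -0.03, and a called difference of 1.19 ± 0.22.

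**Figure D3:**
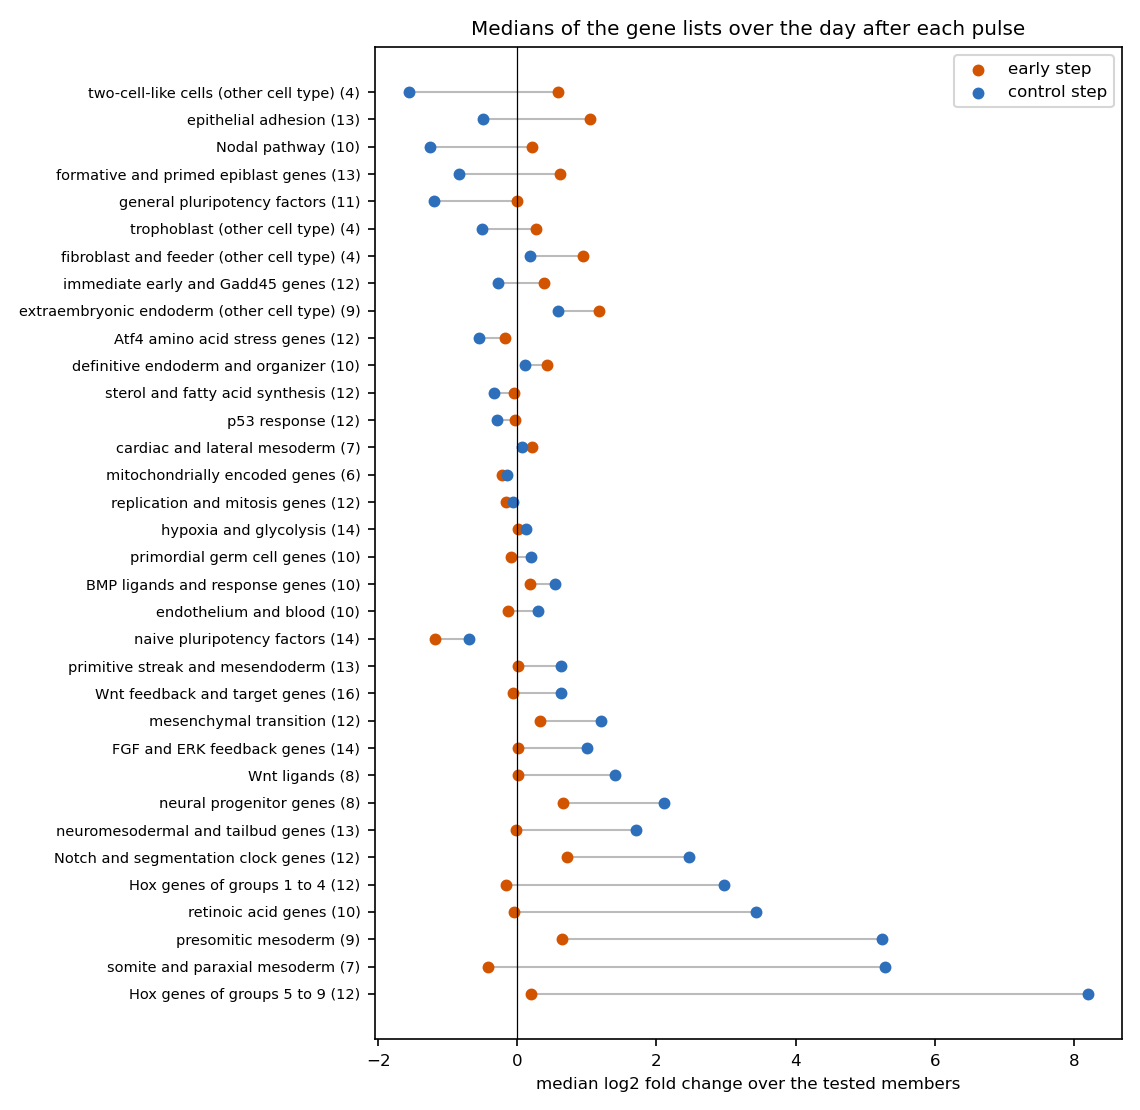
Median log2 fold change of each gene list (number of tested members in brackets) in the early step and in the control step. Genes at 3 counts or fewer in 1 group of a step were set to their bound or counting ratio, and those at 3 or fewer in both were left out. In the early step this left out 3 of 12 Hox genes of groups 1 to 4, 5 of 12 of groups 5 to 9, 1 of 9 presomitic and 2 of 7 somite genes. The formative and epithelial lists lie above 0 for the early step (0.61 and 1.05) and below 0 for the control step (-0.84 and -0.50), and the presomitic, retinoic acid and both Hox lists have control medians of 2.97 to 8.20 against early medians of -0.17 to 0.64.

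Apart from Fgf5, the genes with opposite steps that were named by the size of the difference were of other kinds. Grm6, a glutamate receptor, went from 19.1, 16.8 and 19.1 CPM to 44.9, 42 and 47.6 CPM in the early arm and from 42.6, 34.6 and 18.5 CPM to 2.76, 1.57 and 1.25 CPM in the control arm. Mmp25, a membrane-bound matrix protease, went from 30.2, 34.1 and 31.1 CPM to 95.7, 96.8 and 96.4 CPM and from 57.8, 52.1 and 37.6 CPM to 4.71, 3.42 and 3.93 CPM, a difference of 5.20 ± 0.18 (adjusted p = 7.10e-13, edgeR). Calcr, the calcitonin receptor, had a difference of 5.28 ± 0.36 (adjusted p = 2.78e-09).
In the other direction, Gprc5a, an orphan G protein-coupled receptor, fell from 1.89, 2.21 and 1.77 CPM to 0.843, 0.733 and 0.656 CPM and rose from 0.213, 0.0521 and 0.325 CPM to 8.74, 11.3 and 13.9 CPM. Its difference was -7.23 ± 0.48 (adjusted p = 1.71e-09, edgeR). Slc38a8, an amino acid transporter, had a difference of -8.56 ± 1.28 (adjusted p = 3.07e-05), but its early fall of 2.38 (adjusted p = 4.30e-02) was not called when any 1 early library was left out (adjusted p = 0.051 to 0.14), and the difference was -9.74 and -7.95 without the first and the second control library of 72 h. Ptgs1, a prostaglandin synthase, and Lgals3, a galectin, had differences of -5.72 ± 0.64 and -5.73 ± 0.67, and that of Lgals3 was -6.55 without both control libraries numbered 3. Their early falls were not called in some of the fits on FPKM values.

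Among changes called in the early arm alone, Nr5a2, a nuclear receptor that activates pluripotency genes, was the clearest fall. It went from 46.5, 44.6 and 42.9 CPM to 10.3, 11.1 and 9.12 CPM after the early pulse and held 2.56, 2.5 and 3.51 CPM and then 3.78, 2.28 and 3.12 CPM around the control step. This gave an early step of -2.13 ± 0.13 (adjusted p = 1.99e-09, edgeR), a control step of 0.13 (adjusted p = 0.572) and a difference of -2.26 ± 0.23 (adjusted p = 3.04e-07). The naive factor Nr0b1 fell in the same pattern, from 42.5, 40.2 and 42 CPM to 10.6, 12.7 and 11.8 CPM, with 1.12 to 3.57 CPM in the control libraries, and is named after its values were seen. Among the rises, Spon1, a secreted matrix protein, went from 0.338, 0.675 and 0.629 CPM to 5.46, 6.15 and 5.36 CPM with 0.417 to 1.12 CPM in control libraries. Ttbk1, a tau tubulin kinase, went from 1.5, 1.6 and 1.43 CPM to 7.19, 7.33 and 9.18 CPM with 0.772 to 1.82 CPM in control libraries.

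The study also holds early libraries at 96 h, 3 in number, which show what the early arm did on its second day without CHIR. This comparison shares the early 72 h libraries with the early step, so it is given as a description. T stood at 641, 541 and 478 CPM in these libraries, 4.49 ± 0.18 above 72 h on the log2 scale. Wnt3 averaged 51.2 ± 3.29 CPM (SD, n = 3), Eomes 174 ± 25.1 CPM and Sp5 24.5 ± 2.79 CPM, each above its level at 72 h. Nodal averaged 181 ± 1.38 CPM, and Nanog and Fgf5 372 ± 18.3 and 152 ± 10.1 CPM. Tbx6 averaged 1.10 ± 0.434 CPM and Cdx2 3.55 ± 0.566 CPM, far below their control levels a day after the pulse. Of the genes that rose only in the control step, 30.0% rose and 5.38% fell on the early arm's second day, against 17.6% and 17.6% of all genes. Of those that fell only in the control step, 7.70% rose and 32.8% fell. The shares were similar in other classes. Of genes that rose only in the early step 27.3% rose and 9.17% fell, and of those that fell only in it 9.53% rose and 27.7% fell. Where 1 step was called without the difference, 26.2% and 4.91% did so after a rise, and 6.11% and 24.8% after a fall. Genes that rose in the early step and fell in the control step were split, 16.9% up and 24.1% down. Shared changes without a called difference went on in the same direction for 47.8% of rises and 50.2% of falls. The shares were 72.9% and 71.4% for shared changes that were larger in early, and 62.5% and 69.3% for those larger in control.

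**Figure D4:**
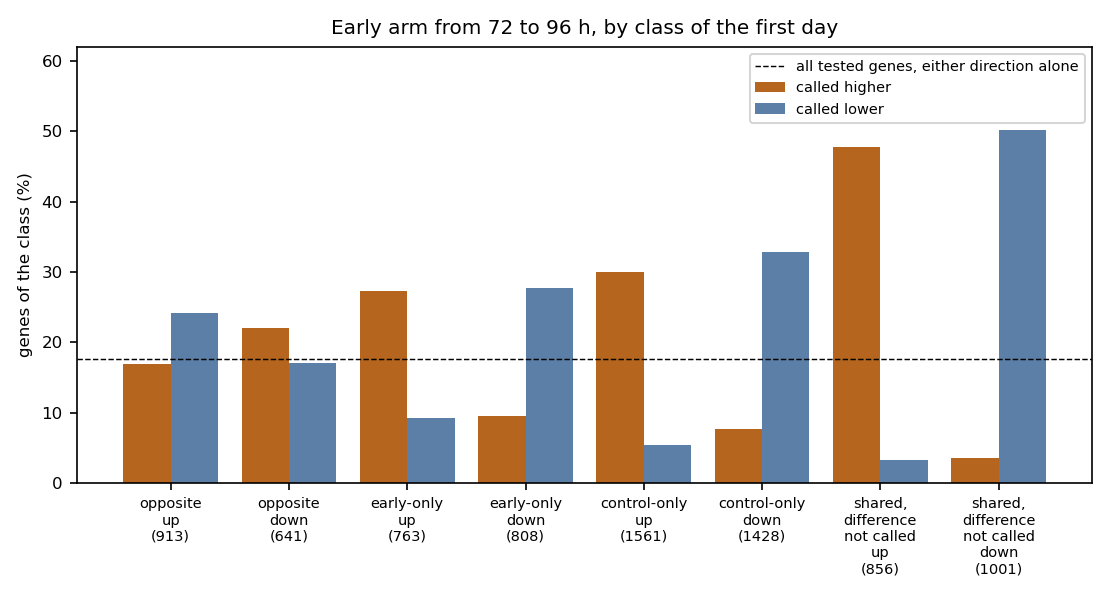
For 4 classes and both directions of change, with the number of genes, bars give the percentage called higher and lower on the early arm's second day (96 h against 72 h), and the dashed line the 17.6% over all genes. Among the 4 classes drawn, shared rises and shared falls without a called difference went on in the same direction most often (47.8% and 50.2%), and the classes with opposite steps were split between both directions.

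Markers of cell types that gastruloids are not meant to hold, or hold few of, were measured as well. Of 9 tested extraembryonic endoderm markers, 7 rose and 1 fell in the early step, none rose and 1 fell in the control step, and 3 differences were above and 1 below 0. The summed level of all 10 listed markers, tested or not, was 318 to 378 CPM and then 318 to 344 CPM in the early arm. In the control arm it was 264 to 272 CPM and then 96.8 to 129 CPM. Most of it was Apoe (312, 259, 244 and 69.7 CPM on average in the 4 groups), a lipoprotein gene that many tissues express. No marker was at 0 in any group but 1 at early 48 h, and 3 markers were under 1 CPM in all 4 groups. Trophoblast markers, 8 listed and 4 tested, summed to 3.04 to 9.92 CPM over the 12 libraries, with 1 or 2 of the 8 at 0 in each group. Fibroblast markers, 7 listed and 4 tested, summed to 7.35 to 39.3 CPM, with 2 of the 7 at 0 in each group. These sums and zeros include the listed markers that were not tested. Of the 4 tested trophoblast markers, 1 rose and 1 fell in the early step, none rose and 1 fell in the control step, and 2 differences were above 0. Of the 4 tested fibroblast markers, 3 rose and none fell in the early step (median 0.95), 2 rose and 2 fell in the control step, and 2 differences were above 0. Thy1, a surface protein that T cells and neurons also carry, was the one with opposite steps, with 5.80, 7.98 and 6.69 CPM and then 9.82, 9.08 and 8.34 CPM in the early arm and 9.86, 10.0 and 8.77 CPM and then 4.67, 4.83 and 6.49 CPM in the control arm. Genes of two-cell-like cells, 6 listed and 4 tested, summed over all 6 to 4.73 to 8.60 CPM in early and 0.109 to 1.95 CPM in control libraries. Of the 4 tested, edgeR called none in either step or in the difference, where 3 had an unadjusted p below 0.05 and DESeq2 called 1. Without both control libraries numbered 3, edgeR called 1 rise in the early step and 2 falls in the control step. The part of such cells in the results above was not tested. Of 6 mitochondrially encoded genes tested, edgeR and DESeq2 called none in either step or in the difference, and 1 had an unadjusted p below 0.05, in the early step. The protocol names 2 library preparations without saying which libraries belong to each, so a preparation batch could not be examined.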

How the data were processed

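Poly(A) RNA was sequenced from pools of gastruloids, in libraries made with a stranded mRNA kit, per the labels' protocols. The deposited table of read counts per gene was made by the authors, as whole numbers with no normalization, and how reads were assigned to genes is not given in the sources used here. The deposited FPKM values, also by the authors, are scaled by gene length and library size and served in alternatives. The submitters' processing notes name cutadapt 4.0, STAR 2.7.8a, Cufflinks 2.2.1 and the build mm10.

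Counts of all 18 libraries and 6 groups were fitted together with edgeR 4.0.16 in R 4.3.3, with TMM scaling, its filter on low expression and the quasi-likelihood F-test. The fit left 12 residual degrees of freedom. Contrasts were the early step, the control step, their difference and the early arm's second day, with p-values adjusted over 16041 genes. SEs are the absolute log2 fold change over the square root of F, and CPM are TMM-scaled. Folds against a group with 0 counts are bounds at 3 counts over the group, and those with 1 to 3 counts carry an exact 95% counting interval, which covers counting error only. The test of the difference was first tried on simulated counts, and the sorting into classes on made-up calls. Total counts were 14841728 to 24536538 per library, so 1 CPM stands for about 15 to 25 reads.

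A gene was named by rule if it was among the largest differences of its class and direction (4 for opposite and control-only, 3 for early-only, and 3 with the largest smaller step for shared changes without a called difference), with a mean of at least 5 CPM in any group and groups that did not overlap in each called step. A gene was also named as 1 of up to 3 members of a list with the lowest adjusted p of the difference, as a member with opposite steps, or as 1 of 30 fixed genes, which gave 158 genes. The 34 lists (357 names), members and tests were chosen with earlier results of these data known, so they lend no independent support. Correlations of deviations from group means were -0.0354 to 0.0992 for 18 same-number pairs of libraries and -0.100 to 0.0536 for 36 other pairs. Between the 2 control ages the same-number values were 0.0224, 0.0992 and 0.0943. Values this small do not settle whether replicate numbers pair the libraries. The main fit used no block, and blocks served as alternatives.

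Alternatives were DESeq2's size factors (DESeq2 1.42.0) and its Wald test, other filters, the 4 groups alone, replicate blocks, a 2-fold threshold, limma 3.58.1 on log2(FPKM + 1) and log2(FPKM + 0.1), leaving out each of the 12 libraries, or both control libraries numbered 3, and centred FPKM values. Tables and figures used Python 3.11.15, pandas 2.3.3, scipy 1.17.1 and matplotlib 3.10.9. Some genes that the naming rule takes are not reported here, though the counts of their lists include them.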

Additional observations from a re-analysis of the deposited data

Results flagged for a closer look

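The response to the end of the pulse differed between the arms for 7146 genes by the test of the difference itself (edgeR's quasi-likelihood test, adjusted p below 0.05). The genes named for the size of that difference, with both steps called and opposite, are listed here with the difference on the log2 scale. In early gastruloids the RNA of Fgf5 (5.66), Grm6 (5.32), Calcr (5.28) and Mmp25 (5.20) rose while it fell in control ones. The reverse held for Slc38a8 (-8.56), Gprc5a (-7.23), Lgals3 (-5.73) and Ptgs1 (-5.72), of which Slc38a8, Lgals3 and Ptgs1 lost their early call in some alternatives.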

How the results depend on the processing

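Of 3937 values of the difference for the 158 named genes under alternatives, 80 were no longer called and 76 were newly called. Another 7 changed sign and were called in the main fit or the alternative. The other 3774 kept their call, and their direction where it was called. They include changes of sign between values that were not called, such as Hes5 (-1.08, and 0.85 without the early 48 h library numbered 3). The 7 sign changes with a call were in Hoxa7 (-3.54 on counts, 1.31 with log2(FPKM + 0.1), 0.26 with log2(FPKM + 1), also over all genes, and 0.25 after centring) and Laptm5 (0.05 on counts, -0.73 with log2(FPKM + 1), also over all genes, and -0.74 after centring). The class of 74 of the 158 held under all 24 alternatives other than the 2-fold threshold. Of 475 counts, 47 moved by over 1.5 times.

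Requiring a 2-fold change left 931 genes up and 449 down in the early step, 1349 up and 1327 down in the control step, and differences of 1741 above and 964 below 0. It left 178 and 65 opposite genes, 362 and 108 early-only, 588 and 814 control-only, 155 and 93 shared without a called difference, 19 and 9 shared but larger in control, 1 and 0 shared but larger in early (up and down each), and 1144 unresolved. With log2(FPKM + 0.1), log2(FPKM + 1) and log2(FPKM + 1) over all genes, in this order, falls in the early step numbered 1484, 1582 and 1517, early-only falls 323, 400 and 401, and opposite genes that fell early 265, 262 and 204. In the same order, shared falls without a called difference numbered 435, 430 and 385, those larger in control 142, 135 and 107, and those larger in early 37, 56 and 37. Differences below 0 numbered 2282 with log2(FPKM + 0.1). Centring, added after seeing the data, gave 337 opposite genes that fell early, 1819 falls and 541 rises shared without a called difference, and 62 rises larger in early. The cause of these shifts was not tested.

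Without both control libraries numbered 3, 449 shared rises were larger in control, and 829 of 913 and 567 of 641 opposite genes kept their class. Leaving out 1 library at a time gave 181 to 402 shared rises larger in control (402 without the third control library of 96 h). Shared rises larger in early numbered 63 to 141 (63 and 70 without the second control libraries of 96 and 72 h), and falls 59 to 81 (59 without the first control library of 96 h). All other counts stayed within 1.5 times, for example 3320 to 4018 differences above and 3069 to 3678 below 0. With the replicate number as a block, differences numbered 3726 above and 3594 below 0, and 3762 and 3621 with the block within arms. Whether the numbers pair the libraries is not known, though every same-number correlation was under 0.1. The block moved no count by over 1.5 times.

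Genes at a few counts in early libraries, such as Msgn1 and many Hox genes, have early steps and differences with wide errors, and their calls also depend on the control libraries numbered 3. There are 3 libraries a group. Early and control gastruloids also differ in age and in level at the end of their pulse.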

Other observations

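Other gene groups, not yet described, are given by their counts of called members, with no test of a difference between groups. Over all tested genes 20.7% rose and 21.9% fell in the early step, 27.5% and 27.4% in the control step, and 22.8% of differences were above and 21.7% below 0. Immediate early and Gadd45 genes, 12 in number, held 2 rises and 0 falls in the early step and 1 and 6 in the control step, with 5 differences above 0 and 0 below. Jun, a subunit of the AP-1 factor, went from 1.64, 1.47 and 1.66 CPM to 8.98, 8.88 and 8.64 CPM after the early pulse and from 9.01, 8.34 and 8.45 CPM to 4.19, 3.75 and 3.06 CPM after the control pulse, a difference of 3.68 ± 0.20 (adjusted p = 1.15e-10, edgeR). Egr1, a zinc-finger factor of the immediate early response to growth factors, held 4.42 to 8.02 CPM in early libraries and fell from 20.1, 23.4 and 27.8 CPM to 8.09, 5.81 and 5.86 CPM in control ones. Of 12 p53 response genes, 4 rose and 4 fell in the early step and 2 rose and 7 fell in the control step, with 9 differences above 0 and 1 below. On FPKM values 4 rose and 0 fell in the early step. Trp53inp1, which promotes p53 activity, stayed at 303 to 334 CPM in early libraries and fell from 289, 292 and 309 CPM to 142, 147 and 128 CPM in control ones. Perp, a membrane protein of desmosomes, went from 6.53, 6.2 and 6.81 CPM to 15.7, 16 and 14.8 CPM and from 22.3, 19.2 and 23.6 CPM to 17.1, 13.9 and 9.04 CPM.

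Of 12 Atf4 amino acid stress genes, 3 rose and 8 fell in the early step and 1 rose and 10 fell in the control step, with 9 differences above 0. On FPKM values with a pseudocount of 1, 2 rose and 3 fell in the early step. Sterol and fatty acid synthesis genes fell in the control step in 11 of 12, against 1 rise and 3 falls in the early step, and 9 differences were above 0. On FPKM values 2 of them rose and 0 fell in the early step. Fdft1, squalene synthase, held 157 to 167 CPM in early libraries and went from 123, 137 and 143 CPM to 101, 97.1 and 85 CPM in control ones, a difference of 0.48 ± 0.09 (adjusted p = 2.45e-04, edgeR). Hypoxia and glycolysis genes (14) held 4 rises and 2 falls early and 7 and 3 in the control step. Hk2, a hexokinase, had small opposite steps of -0.26 and 0.25. Replication and mitosis genes (12) held 1 rise and 7 falls in the early step and 4 and 6 in the control step, and 3 rises and 4 falls in the early step on FPKM values.

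Germ cell genes (10) held 1 rise and 3 falls in the early step and 4 and 3 in the control step. Ddx4, an RNA helicase of the germ line, rose from 17.2, 18 and 17.7 CPM to 28.2, 28.9 and 28.7 CPM and fell from 15.7, 13.9 and 22.4 CPM to 5.04, 4.29 and 6.49 CPM. Primitive streak genes (13) held 0 rises and 3 falls early and 7 and 5 in the control step. Endoderm and organizer genes (10) held 1 and 1 early and 3 and 5 in the control step. Cxcr4, a chemokine receptor of migrating mesendoderm, went from 0.64, 0.521 and 0.39 CPM to 22.5, 25.1 and 21 CPM in control libraries and stayed at 0.307 to 1.14 CPM in early ones. Somite genes (7) held 0 rises and 1 fall early and 4 and 1 in the control step, cardiac and lateral genes (7) 2 and 0 and then 3 and 2, endothelial and blood genes (10) 2 and 3 and then 4 and 4, and neural progenitor genes (8) 3 and 0 and then 6 and 0. Ncam1, a neural adhesion gene, went from 4.69, 4.69 and 4.94 CPM to 47.1, 50.7 and 85.6 CPM in control libraries.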
